A study of Mus musculus with 112 samples.

Results

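The canonical histone genes encode the linker histone H1 and the core histones H2A, H2B, H3 and H4 around which DNA is wrapped. They were taken from the count tables by symbol: Hist1h to Hist4h, H1f, H2ac, H2bc, H3c or H4c, each followed by a number or letter code. The rule found 69 of 25209 genes, of which 10 encode H1, 18 H2A, 17 H2B, 12 H3 and 12 H4. In mm9, 55 lie on chromosome 13, 10 on chromosome 3, 2 on chromosome 15 and 2 on chromosome 6. The lists of context and marker genes used beside them are named where their values are given.

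The study asked how the histone demethylase LSD1 (gene Kdm1a), its CoREST partners RCOR1 and RCOR2, and the methyltransferase MLL4 (gene Kmt2d) regulate genes in mouse embryonic stem cells (ESCs), in 112 RNA-seq libraries of V6.5 ESCs and their derivatives. ESC groups were kept in 2i and LIF: WT (n = 11), LSD1 KO lacking the promoter and first exon of the gene (n = 6), LSD1 CI with catalytically dead LSD1 left in place (n = 4), RCOR2 KO (n = 4), RCOR1 KO (n = 4), their double knockout RCOR1/2 DKO (n = 4), MLL4 KO (n = 2), MLL4/LSD1 DKO (n = 4) and MLL4KO/LSD1CI (n = 4). Embryoid bodies (EBs) were collected after 6 days from WT (n = 7), LSD1 KO (n = 2), LSD1 CI (n = 4), RCOR1 KO (n = 4), RCOR2 KO (n = 2) and RCOR1/2 DKO (n = 4) cells. Groups of 2 libraries held EBs, 4-day serum cultures or 2-day epiblast-like cells (EpiLCs) in the solvent DMSO: WT and LSD1 KO in all 3, and LSD1 CI in serum and EpiLC. LSD1 KO cells were also treated with A485, an inhibitor of the acetyltransferases P300 and CBP, as ESCs (beside a DMSO group), EBs, serum cultures and EpiLCs (n = 2 each). The paper gives a lower A485 dose for EBs than for ESCs, and states none for serum cultures or EpiLCs. Dose and cell state therefore cannot be told apart between A485 comparisons. Doxycycline (DOX) switched on a tagged LSD1 from an integrated PiggyBac transgene in LSD1 KO cells (LSD1Res) or in RCOR1/2 DKO cells (DKO + LSD1), with noDOX controls (n = 4 each) and LSD1 KO cells with or without DOX (n = 2 each). Each mutant derives from a small number of clones, so clone and genotype are tied within a group, and where libraries share a clone a p-value measures only the spread between these libraries.

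Most canonical histone genes are transcribed in S phase, when new DNA needs new nucleosomes, and stand in clusters of near-identical, mostly intronless copies. Their mRNAs do not end in a poly(A) tail but in a short stem-loop that the protein SLBP binds, and their levels therefore follow replication closely. A few members depart from this: H1f0 and H1f10 encode linker variants made outside S phase, and H2ac1, H2bc1 and H1f6 encode testis-type histones made in male germ cells. The libraries were made from ribosomal-RNA-depleted total RNA, which keeps RNA without a poly(A) tail.

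The sequence that most of these mRNAs share was read from the mm9 genome around each annotated gene end. The letters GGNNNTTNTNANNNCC, a stem of 6 paired positions around a 4-base loop, were found in 50 of 61 members placed at 1 position (82%), against 137 of 24943 genes (0.549%). All 12 H4 genes held it, and 9 of 10 H3, 12 of 14 H2A, 11 of 15 H2B and 6 of 10 H1 genes did. H1f0, H1f10, H1f7 and H1f8 did not hold these letters in the window, from 150 bases before to 100 bases after the annotated end. The most common spelling was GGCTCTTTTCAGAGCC (28 members), and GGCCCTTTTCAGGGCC (7 members) was found in H4 genes alone among the members. The ends of 7 genes described later are given to show the element, 5′ to 3′ on the gene's strand, with the motif in capitals.
H4c4, chr13:23673814-23673839 (+): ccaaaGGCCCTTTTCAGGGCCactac
H3c8, chr13:23627753-23627778 (+): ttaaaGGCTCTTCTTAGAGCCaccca
H2bc9, chr13:23634792-23634817 (-): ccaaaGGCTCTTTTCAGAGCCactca
H1f4, chr13:23713646-23713671 (-): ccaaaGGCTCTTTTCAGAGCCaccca
H1f6, chr13:23788389-23788414 (+): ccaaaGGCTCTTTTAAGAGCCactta
H2bc1, chr13:24025594-24025619 (-): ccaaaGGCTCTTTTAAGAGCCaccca
H2ac1, chr13:24026755-24026780 (+): aaaaaGGCTCTTTTCAGAGCCacctt
The loop and the flanks differ between these genes, and H2bc1 and H1f6 share a spelling that 8 members have.

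Upstream, in the window from 250 bases before to 50 bases after the annotated start and on both strands, TATAAA was found in 36 of 61 members (59%, against 13.2% of all genes), CCAAT in 49 (80.3%, against 38.4%) and the octamer ATTTGCAT in 14 (23%, against 1.7%). The 14 octamer genes were 6 H2A and 8 H2B genes. H2bc1 and H2ac1, whose RNA was called together in several comparisons described later, are neighbours that point away from each other, and the 280 bases between their annotated starts hold both promoters (chr13:24026026-24026305, mm9, plus strand, with these motifs in capitals on whichever strand they lie).
H2bc1 to H2ac1: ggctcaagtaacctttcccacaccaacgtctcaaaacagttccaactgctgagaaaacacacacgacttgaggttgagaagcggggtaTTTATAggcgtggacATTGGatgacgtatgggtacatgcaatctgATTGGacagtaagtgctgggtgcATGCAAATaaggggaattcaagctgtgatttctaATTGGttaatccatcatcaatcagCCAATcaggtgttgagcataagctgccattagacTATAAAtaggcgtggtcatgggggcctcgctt
TATAAA lies once on the strand of each gene, and 4 CCAAT matches and 1 octamer lie between them.

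Libraries held 17.2 to 58.2 M counts, and 0.363 to 1.74% of them fell on the 69 genes. The targeted genes followed the labels in most groups. Kdm1a was at 164 to 244 CPM (a gene's counts over the scaled total of its library) in WT ESCs, 3.85 to 7.67 in LSD1 KO ESCs and 182 to 191 in LSD1 CI ESCs, and Rcor1 and Rcor2 were at 2.14 to 3.77 and 2.45 to 3.49 in RCOR1/2 DKO ESCs. In the library pair labelled RCOR2 KO EB, Rcor2 was at 40.2 and 46.8 CPM, above the 0.759 to 4.93 of RCOR2 KO ESCs. The 7 ESC marker genes summed to 3327 to 4682 CPM in WT ESCs and 37.8 to 186 in WT EBs, the 5 endoderm markers reached 290 to 543 CPM in WT EBs, and none of either list was at 0 there. A group of 9 libraries, WT ESC replicates 1 to 3 and all 6 LSD1 KO ESC libraries, held no count on genes of unplaced contigs, where the other 103 held at least 4241. In these 9, H2B took 11.9% ± 0.92 (SD) of histone CPM, against 19.2% ± 1.79 in the other 103, so the main results that set LSD1 KO ESCs against WT are also given with a term for this difference or against these 3 WT libraries.

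In WT ESCs 59 of the 69 genes reached 1 CPM and 32 reached 100 CPM. Of histone CPM, which are not adjusted for gene length, the classes took the following shares: H4 25.1% ± 4.61, H1 25.03% ± 1.81, H3 23.6% ± 3.47, H2B 17.7% ± 3.82 and H2A 8.60% ± 0.592 (SD, n = 11). The order differs between the 2 sets of WT libraries. In the 8 with counts on unplaced contigs H1 took 25.8%, H4 23.3%, H3 22.4% and H2B 19.7%, and in the other 3 H4 took 30.0%, H3 26.8%, H1 22.9% and H2B 12.2%. Per kilobase of gene, the highest member of each class was H4c4 at 1134 ± 328 CPM, H1f1 at 831 ± 176, H2bc18 at 626 ± 165, H3c3 at 563 ± 177 and H2ac15 at 379 ± 129. The ranges of these 5 levels overlapped between neighbours in that order. The 5 linker genes of dividing somatic cells led the H1 class in the order H1f1, H1f2 (676 ± 192), H1f3 (581 ± 105), H1f5 (485.2 ± 83.6) and H1f4 (314 ± 50.3), far above H1f10 (20.5 ± 6.77), H1f0 (12.8 ± 2.75) and H1f6 (11.6 ± 6.20). H1f7, a spermatid linker histone, and H1f8, the oocyte one, averaged 0.0620 and 0.00673 CPM per kilobase.

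Single-gene values are uncertain, because copies are near-identical. The median share of a gene's 50-base stretches that occur at another place among the members' exons was 66.45% for H2A, 60.8% for H2B, 69.27% for H3 and 49.38% for H4 members, and 0% for H1 members. Hist1h2ap, H2ac18, Hist1h2bq, Hist1h2br, H3c14 and H3c15 were at 0 in every library. Of the 69 genes, 60 passed the filter on low counts in the ESC, EB and WT fits, and 59 in the others. Summed over all members, histone RNA ranged from 4006 to 16856 CPM with a median of 8480 over the 112 libraries.

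**Figure D1:**
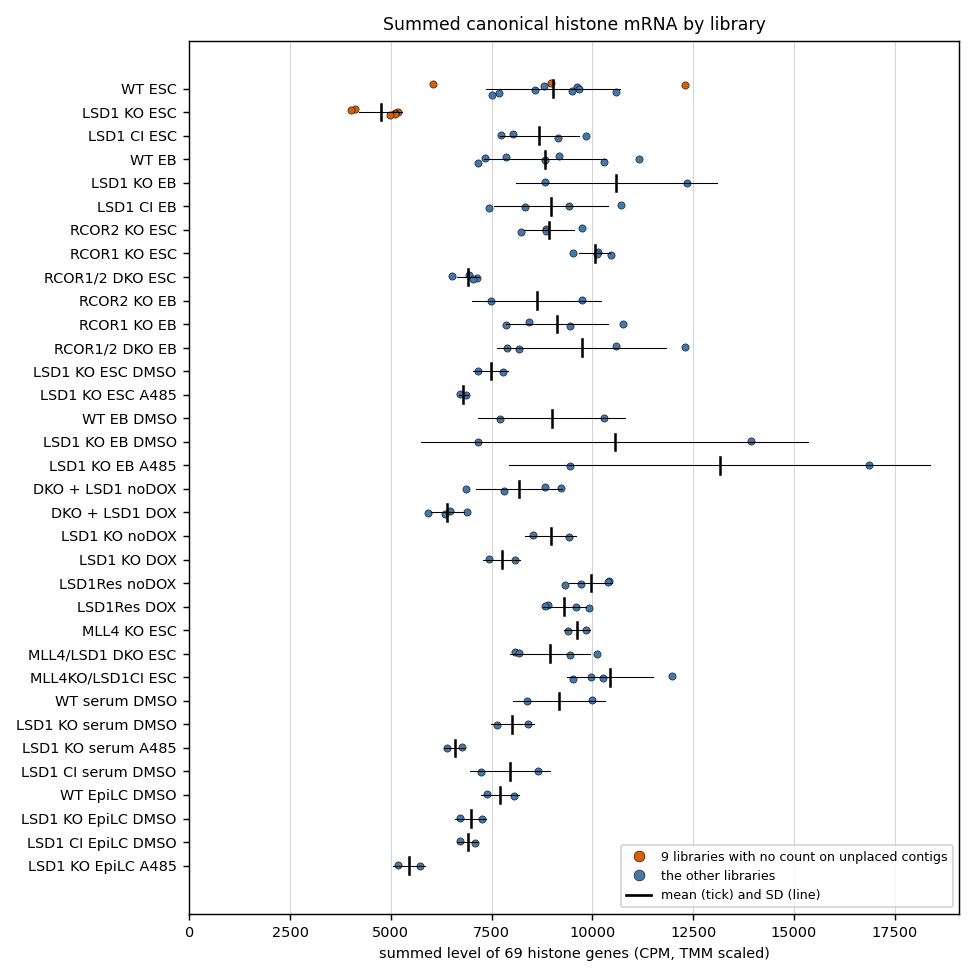
Summed level of the 69 histone genes (CPM, x axis) in each library by group, with the group mean (tick) and SD (line) and the 9 libraries without counts on unplaced contigs in orange. The 6 LSD1 KO ESC libraries sit between 4006 and 5169 CPM, below every other library of ESCs, and the 2 LSD1 KO EB A485 libraries lie far apart.

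When WT ESCs became EBs, the total of histone RNA stayed close while its linker part changed in make-up. WT EBs held 8827 ± 1507 CPM (n = 7) and WT ESCs 9024 ± 1655 (n = 11), but H1 took 30.8% ± 1.29 of it in EBs (29.0 to 32.3%) and 25.03% ± 1.81 in ESCs (22.3 to 27.7%), with no overlap. By edgeR's quasi-likelihood test with Benjamini-Hochberg adjustment (called at an adjusted p below 0.01 and a log2 fold change beyond 1 either way), 3 of 60 members rose and 3 fell, where 22% and 14.5% of all genes tested rose and fell. In bulk RNA fewer cells of a type and less RNA per cell cannot be told apart.

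The 3 that rose are linker genes. H1f0, which accumulates in cells that leave the cycle, lay between 20.6 and 38.3 CPM in WT ESCs (median 28.9) and between 88.3 and 167 in WT EBs (median 110), a log2 fold change of 2.11 (SE 0.14, adjusted p = 1.06e-11). H1f10, a linker variant made outside S phase, lay between 11.6 and 33.3 CPM (median 20.7) and between 48.0 and 91.5 (median 55.1, log2 1.59, SE 0.19, adjusted p = 1.2e-07). H1f4, a replication-dependent linker gene, lay between 188 and 336 CPM (median 239) and between 562 and 832 (median 643; log2 1.54, SE 0.09, adjusted p = 1.64e-12). For none of the 3 did a WT EB library overlap a WT ESC library. The other replication-dependent linker genes did not follow: H1f5 was lower in EBs but short of the fold threshold (385 CPM on average against 225, log2 -0.70, adjusted p = 3.64e-06), and H1f2, H1f3 and H1f1 changed by 0.41, 0.16 and -0.16 on the log2 scale. Over the same comparison 6 of 26 S phase genes fell (median log2 fold change -0.55) and none of 15 mitosis genes was called (median -0.24).

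The 3 that fell are the testis-type genes. H2ac1 (chr13:24026306-24026782) lay between 1.25 and 6.24 CPM in WT ESCs (median 2.57), and in the 7 WT EB libraries it had 8 counts in all, with 3 libraries at 0. H2bc1 (chr13:24025594-24026025) lay between 1.52 and 5.07 CPM (median 2.50) in WT ESCs and had 16 counts over the WT EBs. The pooled level per scaled library size was 103 times higher in ESCs for H2ac1 (exact binomial 95% interval 40.0 to 379, counting error only) and 48.1 times higher for H2bc1 (24.2 to 112). The fitted log2 fold changes were -6.67 (adjusted p = 2.04e-10) and -5.68 (adjusted p = 1.75e-10). Both genes passed the low-count filter through groups other than WT EBs. H1f6 (chr13:23787680-23788414) lay between 2.94 and 15.8 CPM in ESCs and 0.460 and 2.45 in EBs (log2 -2.56, SE 0.38, adjusted p = 2.81e-06). All 3 were low genes in ESCs, but almost gone in EBs only for the H2ac1 and H2bc1 pair.

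WT serum cultures and EpiLCs showed the opposite sign for the pair. H2ac1 stood at 16.2 and 6.85 CPM in serum (log2 1.82 over WT ESCs, SE 0.47, adjusted p = 0.00369) and at 15.8 and 20.6 CPM in EpiLCs (log2 2.46, SE 0.46, adjusted p = 0.000187). H2bc1 stood at 14.0 and 4.85 CPM in serum (log2 1.64, adjusted p = 0.00537) and at 10.6 and 13.7 CPM in EpiLCs (log2 1.99, adjusted p = 0.00105). These were the 2 members called in each comparison, where 12.9% (serum) and 9.11% (EpiLC) of all genes rose. The serum calls rest on replicate 1: without it the log2 fold changes were 1.07 for H2ac1 and 0.68 for H2bc1, and neither was called. In EpiLCs the H2ac1 call was lost without replicate 2, and the H2bc1 call without either, with both still higher (H2ac1 2.26, H2bc1 1.79 and 2.16). H1f0 and H1f10, raised in EBs, were called in neither culture.

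**Figure D2:**
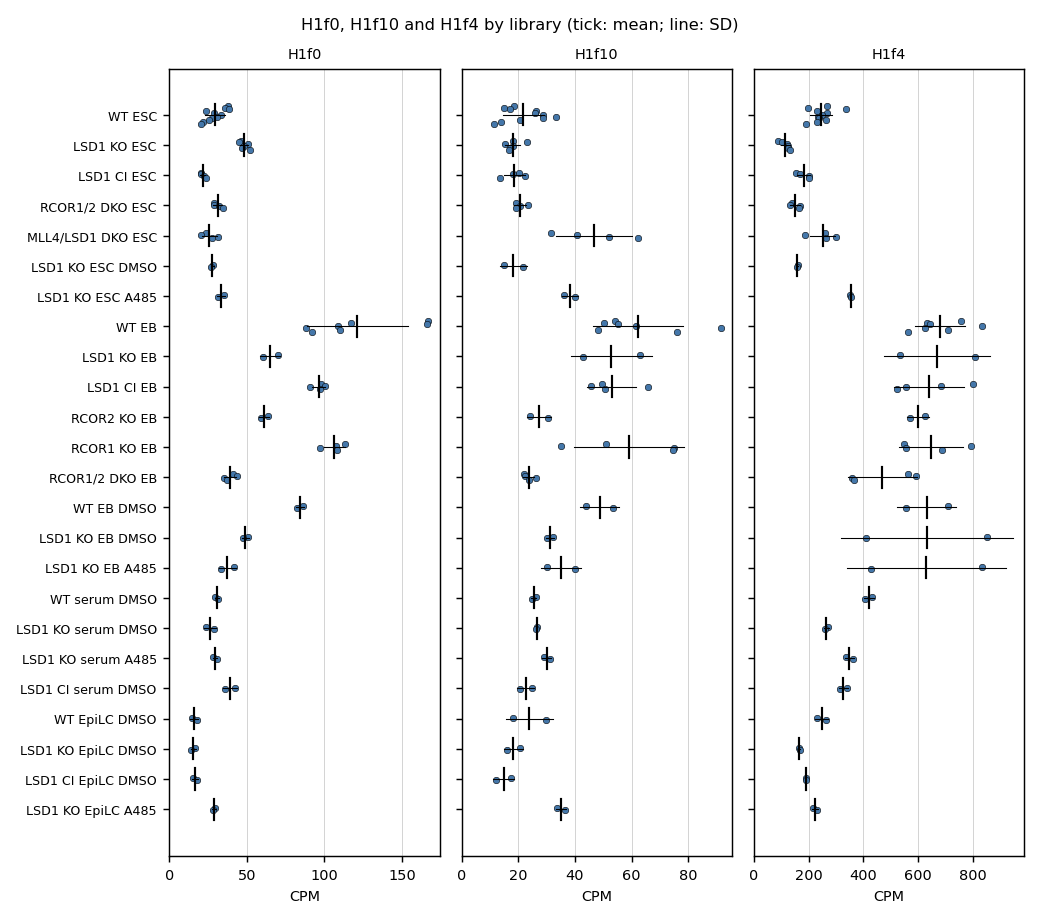
Level of H1f0, H1f10 and H1f4 (CPM, linear x axes) in each library of 24 groups, with group mean (tick) and SD (line). H1f0 and H1f10 have their highest mean in WT EBs (121 and 62.3 CPM) and lie at 34.9 to 43.5 and 21.8 to 26.4 CPM in RCOR1/2 DKO EBs.

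Among the ESC genotypes, the untreated LSD1 KO libraries stood apart in histone RNA. Their total was 4745 ± 537 CPM (4006 to 5169, n = 6) against 9024 ± 1655 (6057 to 12303, n = 11) in WT, a log2 ratio of -0.93 ± 0.32 (SD of the difference) with no overlap. The ratio was -0.94 against the 3 WT libraries that also lack counts on unplaced contigs (6057, 8975 and 12303 CPM) and -0.92 against the other 8 (7502 to 10597). By class the log2 ratios were -1.53 for H2B, -1.17 for H3, -1.13 for H2A and -0.99 for H1, all without overlap, and -0.36 for H4, where the groups overlapped (1510 to 1880 CPM against 1668 to 2940). These class ratios use all 11 WT libraries. Class shares differed between the WT libraries without and with counts on unplaced contigs (H2B 12.2% and 19.7%, H4 30.0% and 23.3%), so the order of classes is uncertain. Of 60 members tested 32 fell and 1 rose, where 10.8% and 10.2% of all genes tested fell and rose. The median log2 fold change of the members was -1.13, against -0.08 over all genes.

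By class, 13 of 15 H2B, 8 of 10 H3, 4 of 14 H2A, 4 of 9 H1 and 3 of 12 H4 members fell. With a term for the 9 libraries, 31 fell and none rose (5.74% and 7.56% of all genes), 9 H2B, 9 H3, 7 H2A, 4 H1 and 2 H4 genes. The count against the 3 WT libraries alone was also 31 down and 0 up, and no share of all genes is given for that fit. Without the term the median log2 fold change was -1.72 for H2B, -1.24 for H3, -1.11 for H1, -0.99 for H2A and -0.47 for H4 members. With the term it was -1.45 for H3, -1.15 for H2B, -0.94 for H2A, -0.58 for H1 and -0.47 for H4, so H2B and H3 changed places.

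H2bc9, an H2B gene, changed most among members above 1 CPM. It lay between 15.5 and 84.1 CPM in WT ESCs (median 67.8; 33.5, 15.5 and 69.5 in replicates 1 to 3) and between 4.50 and 6.94 in LSD1 KO ESCs (median 5.16), a log2 fold change of -3.38 (SE 0.30, adjusted p = 8.16e-12) and of -2.87 with the term (adjusted p = 1.23e-08). H2bc3 fell from a median of 124 to 18.0 CPM (log2 -2.70; -1.77 with the term) and H2bc6 from 110 to 17.8 CPM (log2 -2.65; -1.88). The H4 genes Hist1h4n (log2 -2.64, -1.07 with the term) and Hist1h4m (-3.15) followed, but Hist1h4m was at 0.281 to 0.399 CPM in WT replicates 1 to 3, around the mean of 0.359 CPM in LSD1 KO, and its log2 fold change was 0.05 with the term.

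Abundant members of other classes moved less. H4c4 (chr13:23673437-23673838) lay between 262 and 772 CPM in WT (588, 262 and 772 in replicates 1 to 3) and between 153 and 211 in LSD1 KO (log2 -1.32, SE 0.13, adjusted p = 3.41e-11; -1.57 with the term). H3c6 fell from 199 to 722 CPM in WT to 135 to 192 CPM (log2 -1.62, SE 0.14, adjusted p = 8.19e-13; -1.58 with the term). The H2A genes H2ac10, H2ac11 and H2ac15 fell by 2.22, 2.22 and 1.73 on the log2 scale. Of the members that led their class per kilobase, H3c3 fell by 1.26, and H2bc18 fell by 1.02 (121 to 186 CPM against 169 to 412) but was not called with the term (-0.48). Of the linker genes, H1f5 (-1.24), H1f4 (-1.12), H1f2 (-1.11) and H1f6 (-1.37) fell, H1f3 (-0.99) and H1f1 (-0.96) stayed within the fold threshold at adjusted p = 1.56e-11 and 8.44e-09, and H1f10 stood at -0.29. The groups overlapped for H1f2 (179 to 259 CPM against 228 to 733) and H1f6, and H1f6 was not called with the term (-0.48). H1f0, which lacks the stem-loop letters, went the other way without passing the fold threshold (44.7 to 52.1 CPM against 20.6 to 38.3, log2 0.69, adjusted p = 4.6e-06; 0.35, adjusted p = 0.0545 with the term).

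H2bc1 was the 1 member that rose (5.90 to 8.25 CPM, median 6.91, against 1.52 to 5.07, median 2.50; log2 1.14, SE 0.26, adjusted p = 0.000224). With the term it stood at 1.08 (adjusted p = 0.0201) and was not called. Its neighbour H2ac1 was at 1.23 to 2.13 CPM against 1.25 to 6.24 (log2 -0.99, adjusted p = 0.0116, not called), so the signs of the pair differed here. In WT replicates 1 to 3 H2ac1 stood at 2.46, 1.25 and 2.62 CPM, overlapping the LSD1 KO libraries.

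Genes tied to replication were not called with them. None of 26 S phase genes and none of 15 mitosis genes was called in LSD1 KO ESCs (medians 0.09 and 0.05), and the S phase genes summed to 5419 to 5587 CPM against 4796 to 6015 in WT. None of 7 CDK inhibitor genes was called. Among 19 genes that transcribe or process histone mRNA (median -0.33), Lsm11, a subunit of the U7 particle that cuts the mRNA behind the stem-loop, fell (log2 -1.13, adjusted p = 2.23e-08), and stood at -0.86 with the term, not called. Of 16 histone chaperones 2 rose (Atrx 1.09, Nap1l1 1.08) and of 11 replication-independent histone variants 1 fell (H2ax -1.22). The 4 fibroblast markers summed to 16.8 to 25.9 CPM in LSD1 KO ESCs and to 2.07 to 5.38 in WT, and their part in the result was not tested.

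The fall was not seen to the same degree in other ESCs that lack LSD1. LSD1 KO ESCs in DMSO held 7169 and 7783 CPM of histone RNA and LSD1 KO cells without DOX 8520 and 9410 CPM, above all 6 untreated LSD1 KO libraries. Set against the 8 WT ESC libraries with counts on unplaced contigs, as comparisons added after the data were seen, 4 of 60 members fell in the DMSO libraries (0.9% of all genes fell) and 1 in the noDOX libraries (2.16%), and none rose. H2bc9 fell in both: 23.1 and 15.5 CPM in DMSO (log2 -1.67, SE 0.37, adjusted p = 0.0012) and 20.7 and 15.6 CPM without DOX (log2 -1.76, SE 0.37, adjusted p = 0.000558). The other 3 in DMSO were H3c10 (-1.26), H2ac10 (-1.19) and H2ac21 (-1.15). H4c4, at -1.32 in the untreated libraries, stood at -0.01 in DMSO and -0.09 without DOX, and H2bc3 at 0.01 and 0.50. H2ac1, at 1.23 to 2.13 CPM in the untreated libraries, stood at 4.95 and 4.62 in DMSO and 8.12 and 12.9 without DOX. H2bc1 stood at 5.36 and 4.13 CPM in DMSO and 6.22 and 5.94 without DOX. MLL4/LSD1 DKO ESCs, which also lack LSD1, held 8956 ± 990 CPM (n = 4). No other mutant is among the 9 libraries without counts on unplaced contigs, and WT replicates 1 to 3 are the WT libraries that share this with untreated LSD1 KO ESCs. What sets the untreated libraries apart from the other LSD1 KO libraries was not tested.

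In ESCs with catalytically dead LSD1 no member passed the test. LSD1 CI ESCs held 8688 ± 981 CPM of histone RNA (n = 4, log2 ratio -0.06) and no member was called (3.24% of all genes were; 12 members had an unadjusted p below 0.05, and DESeq2 called 1). The share in such brackets is for calls. Here and below, no share of all genes is given for an unadjusted p below 0.05, so those counts have no background. H2bc9 was lower here as well, past the fold limit but short of the p threshold (log2 -1.05, SE 0.30, adjusted p = 0.0162). RCOR1 KO (log2 ratio 0.16) had no member called either (0.142% of all genes; 16 with an unadjusted p below 0.05 and 0 by DESeq2).

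In RCOR2 KO ESCs (log2 ratio -0.02) the 1 called member was H1f6, at 1.75, 2.63, 2.34 and 2.62 CPM against 2.94 to 15.8 in WT (log2 -1.88, SE 0.38, adjusted p = 0.000369, while 1.52% of all genes fell). In RCOR1 KO ESCs the same gene stood at 20.5, 18.2, 12.3 and 16.5 CPM (log2 0.98, adjusted p = 0.0464, not called). The RCOR2 KO call was lost when only these 2 groups were fitted.

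RCOR1/2 DKO ESCs held 6519 to 7144 CPM of histone RNA (6913 ± 275, n = 4), a log2 ratio of -0.38 ± 0.28 to WT with overlap. Of 60 members 4 fell and none rose, where 6.32% of all genes fell, and the median was -0.35 against -0.06 over all genes. H2bc9 was again among them, at 19.7, 15.2, 11.1 and 9.87 CPM, overlapping WT replicate 2 at 15.5 (log2 -2.01, SE 0.32, adjusted p = 3.4e-06). H3c4 stood at 73.6, 65.9, 75.8 and 74.8 CPM, below all WT libraries (112 to 334; log2 -1.39, SE 0.15, adjusted p = 9.42e-10). H2ac21 (4.45, 3.49, 2.49 and 2.37 CPM against 4.99 to 11.1, log2 -1.20) and H3c13 (66.0 to 69.6 CPM against 53.8 to 326; log2 -1.03, adjusted p = 0.00323) were the others. H3c13 was not called by DESeq2, with the term (-0.66) or without any 1 of the 4 mutant libraries. Both comparisons use the same WT libraries; in LSD1 KO ESCs H2bc9, H3c4 and H3c13 also fell, and H2ac21 did not pass.

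**Figure D3:**
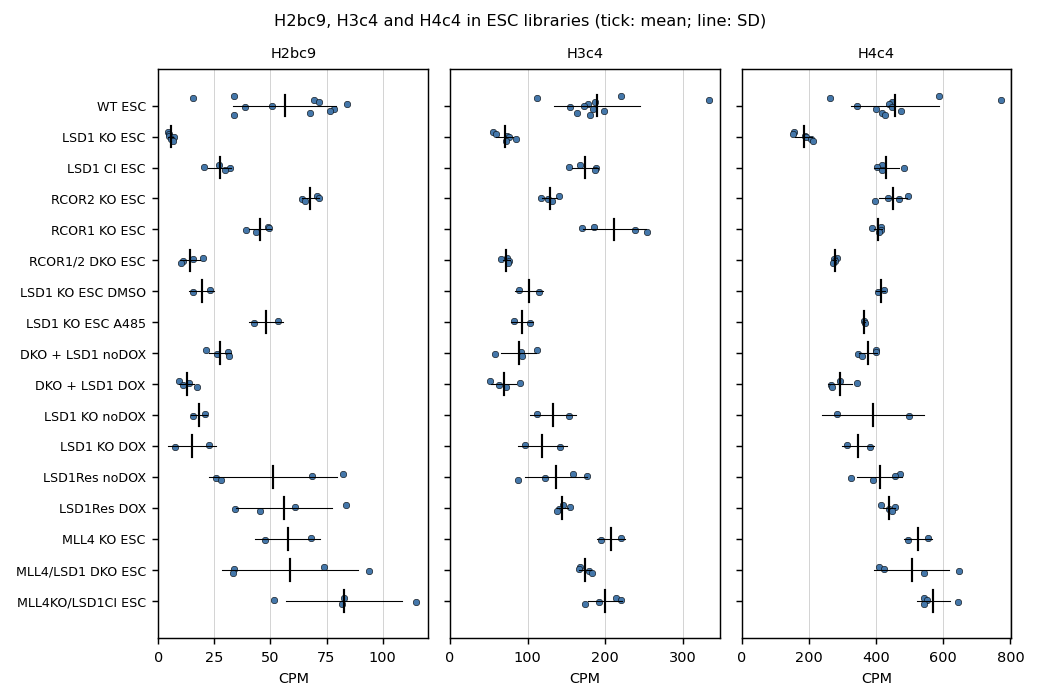
Level of H2bc9, H3c4 and H4c4 (CPM, linear x axes) in each ESC library by group, with group mean (tick) and SD (line). H2bc9 is lowest in untreated LSD1 KO ESCs (4.50 to 6.94 CPM) and lies at 9.87 to 19.7 CPM in RCOR1/2 DKO ESCs, while H4c4 lies at 405 and 422 CPM in LSD1 KO ESCs in DMSO.

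In the ESC groups labelled as lacking MLL4, Kmt2d was at 216 to 225 CPM (MLL4 KO), 153 to 219 (MLL4/LSD1 DKO) and 206 to 400 (MLL4KO/LSD1CI) against 316 to 869 in WT, and the histone total stayed close to WT (log2 ratio 0.09 in MLL4 KO, -0.01 in MLL4/LSD1 DKO and 0.21 in MLL4KO/LSD1CI). In MLL4 KO ESCs H2bc1 stood at 1.09 and 0.189 CPM (log2 -2.24, SE 0.52, adjusted p = 0.000959) and H2bc21, an H2B gene outside the large cluster, at 2.77 and 3.31 CPM against 0.641 to 1.62 in WT (log2 1.35, SE 0.31, adjusted p = 0.000798), the 2 members called where 3.84% of all genes rose and 6.85% fell. H2bc1 was at -1.46 and not called without replicate 2, and H2bc21 was not called without either library (1.48 and 1.22). H2bc21 was also the 1 member called in MLL4KO/LSD1CI (2.94, 3.33, 3.07 and 3.24 CPM, log2 1.39, SE 0.24, adjusted p = 1.18e-05, while 6.28% of all genes rose). H1f4 was high in both without passing the fold threshold (497 and 422 CPM in MLL4 KO, log2 0.94, adjusted p = 1.24e-06; 537, 446, 436 and 378 CPM in MLL4KO/LSD1CI, log2 0.90, adjusted p = 8.69e-09). In MLL4/LSD1 DKO, H2ac1 (7.32, 7.78, 11.2 and 10.8 CPM, log2 1.49, SE 0.35, adjusted p = 0.000678) and H1f10 (31.5, 40.9, 52.1 and 62.4 CPM, log2 1.12, SE 0.20, adjusted p = 1.54e-05) rose, where 8.59% of all genes did. H1f10 was at 0.95 without replicate 4.

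In EBs the testis-type genes separated LSD1 KO and RCOR1/2 DKO from WT by more than any other member. H2ac1 stood at 9.35 and 11.2 CPM in LSD1 KO EBs and at 22.9, 22.7, 15.97 and 23.0 CPM in RCOR1/2 DKO EBs, where the highest WT EB library had 0.0575. The pooled level was 369 times that of WT EBs in LSD1 KO (143 to 1360; 922 against 8 counts) and 773 times in RCOR1/2 DKO (302 to 2843; 3131 counts). H2bc1 stood at 6.92 and 6.92 CPM in LSD1 KO EBs and at 20.4, 17.7, 13.5 and 15.2 CPM in RCOR1/2 DKO EBs, where WT EBs reached 0.147 (124 times, 62.2 to 290, and 305 times, 154 to 708). The adjusted p of edgeR's test lay at 3.61e-09 or lower for each of these 4. WT EB libraries held at most 2 counts of H2ac1 and 7 of H2bc1, so both passed the low-count filter through groups with higher counts. These p-values are therefore not separate support for the difference. Compared with WT ESCs, which are not the control of this comparison, the LSD1 KO EB levels lay above the WT ESC ranges of both genes.

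H1f6 rose too, to 5.01 and 4.60 CPM in LSD1 KO EBs (log2 1.80, SE 0.42, adjusted p = 0.00221) and to 16.1, 24.5, 11.7 and 10.6 CPM in RCOR1/2 DKO EBs (log2 3.52, SE 0.36, adjusted p = 4.5e-08), against 0.460 to 2.45 in WT EBs. The LSD1 KO call was lost without either of its libraries. H3c8 was the fourth member to rise in LSD1 KO EBs (202 and 189 CPM against 72.4 to 132; log2 1.04, adjusted p = 0.00189), also lost without either library. In RCOR1/2 DKO EBs the fourth was H2ac10 (129, 175, 97.1 and 113 CPM against 47.1 to 74.5, log2 1.02, adjusted p = 0.000207), at 0.83 and not called without replicate 2. Of all genes, 8.28% rose and 5.42% fell in LSD1 KO EBs, and 14.1% and 12.3% in RCOR1/2 DKO EBs.

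H1f0 and H1f10, which rose as WT ESCs became EBs, fell in RCOR1/2 DKO EBs against WT EBs, and H1f4 stood at -0.53 on the log2 scale and was not called. The same WT EB libraries serve both comparisons, so the rise and the fall are not independent. The separate WT EBs in DMSO stood at 85.9 and 82.4 CPM for H1f0 and at 43.9 and 53.6 CPM for H1f10. H1f0 stood at 41.2, 43.5, 34.9 and 36.9 CPM against 88.3 to 167 in WT EBs (log2 -1.63, SE 0.15, adjusted p = 1.25e-08) and H1f10 at 21.8, 22.3, 26.4 and 23.9 CPM against 48.0 to 91.5 (log2 -1.40, SE 0.20, adjusted p = 6.01e-06). In RCOR2 KO EBs H1f0 was at 63.4 and 58.9 CPM (log2 -1.01, adjusted p = 0.0014) and H1f10 at 24.2 and 30.3 CPM (log2 -1.21, adjusted p = 0.00398), both lost without either library. Rcor2 itself lay higher in this library pair than in RCOR2 KO ESCs, as given earlier. H1f0 in LSD1 KO EBs, at 69.7 and 60.6 CPM, lay below every WT EB library but within the fold threshold (log2 -0.90, adjusted p = 0.000978).

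RCOR2 KO EBs had 1 more call, H2ac1 at 0.211 and 0.407 CPM (8 and 16 counts; 11.5 times WT EBs, 3.49 to 49.0), lost without replicate 2, where 2.18% of all genes rose and 3.1% fell. LSD1 CI EBs had no member called (2.54% of genes; 8 with an unadjusted p below 0.05, and 1 by DESeq2) and H2ac1 at 0 to 0.245 CPM. RCOR1 KO EBs had none called (0.00558% of genes; 4 with an unadjusted p below 0.05, and 0 by DESeq2) and H2ac1 at 0 in 3 of 4 libraries.

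Markers of cell state moved with these results. The ESC markers summed to 37.8 to 186 CPM in WT EBs, 515 to 599 in LSD1 KO, 1068 to 1179 in RCOR1/2 DKO, 229 to 303 in RCOR2 KO, 52.5 to 140 in LSD1 CI and 52.1 to 145 in RCOR1 KO EBs. Of the 7, 3 rose in LSD1 KO EBs and 7 in RCOR1/2 DKO EBs, while 5 of 5 endoderm markers fell in both (290 to 543 CPM in WT, 61.0 to 65.2 in LSD1 KO and 55.6 to 71.9 in RCOR1/2 DKO). The 5 mesoderm markers summed to 67.6 to 561 CPM in WT, 18.6 to 19.9 in LSD1 KO and 5.30 to 6.60 in RCOR1/2 DKO EBs. The part of these cell-state markers in the histone results was not tested.

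The total of histone RNA in EBs stayed close to WT (log2 ratios 0.26 ± 0.42 in LSD1 KO, 0.14 in RCOR1/2 DKO, 0.05 in RCOR1 KO, 0.02 in LSD1 CI and -0.04 in RCOR2 KO). The difference of the LSD1 KO response between EBs and ESCs, tested as an interaction, was called for 37 members upward and 1 downward (H1f0, -1.60), where 9.58% and 5.96% of all genes were. It rests on the untreated LSD1 KO ESC libraries described above.

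The EBs grown in DMSO showed the testis-type genes again, but H3c8 was not called there (log2 0.95, adjusted p = 0.118). In LSD1 KO EBs in DMSO H2ac1 was at 12.7 and 7.04 CPM against 0.0790 and 0.0940 in WT (123 times, 47.7 to 452), H2bc1 at 9.77 and 5.65 against 0.0593 and 0.117 (95.8 times, 37.1 to 353) and H1f6 at 13.0 and 5.48 against 1.38 and 1.08 (log2 2.89, adjusted p = 0.00825). These 3 were the members called (11.7% of genes rose), H1f6 not without either WT library. A485 raised the pair further, H2ac1 to 79.0 and 46.3 CPM (log2 2.68 over DMSO, SE 0.31, adjusted p = 0.000132) and H2bc1 to 42.4 and 21.4 CPM (log2 2.06, SE 0.33, adjusted p = 0.000871), the only members called (4.26% of genes rose). H1f6 stood at 55.0 and 28.5 CPM (log2 2.18, adjusted p = 0.0168, not called). The ESC markers summed to 80.9 to 96.7 CPM in WT, 510 to 554 in LSD1 KO and 1308 to 1336 with A485, with their part again not tested. Of the 7 ESC markers, 6 rose and 1 fell in LSD1 KO against WT, and 5 rose and 0 fell with A485. The histone totals of LSD1 KO EB replicates lay far apart, at 7162 and 13949 CPM in DMSO and 9455 and 16856 CPM with A485, and the 2 groups overlapped (log2 ratio 0.32 ± 0.90).

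**Figure D4:**
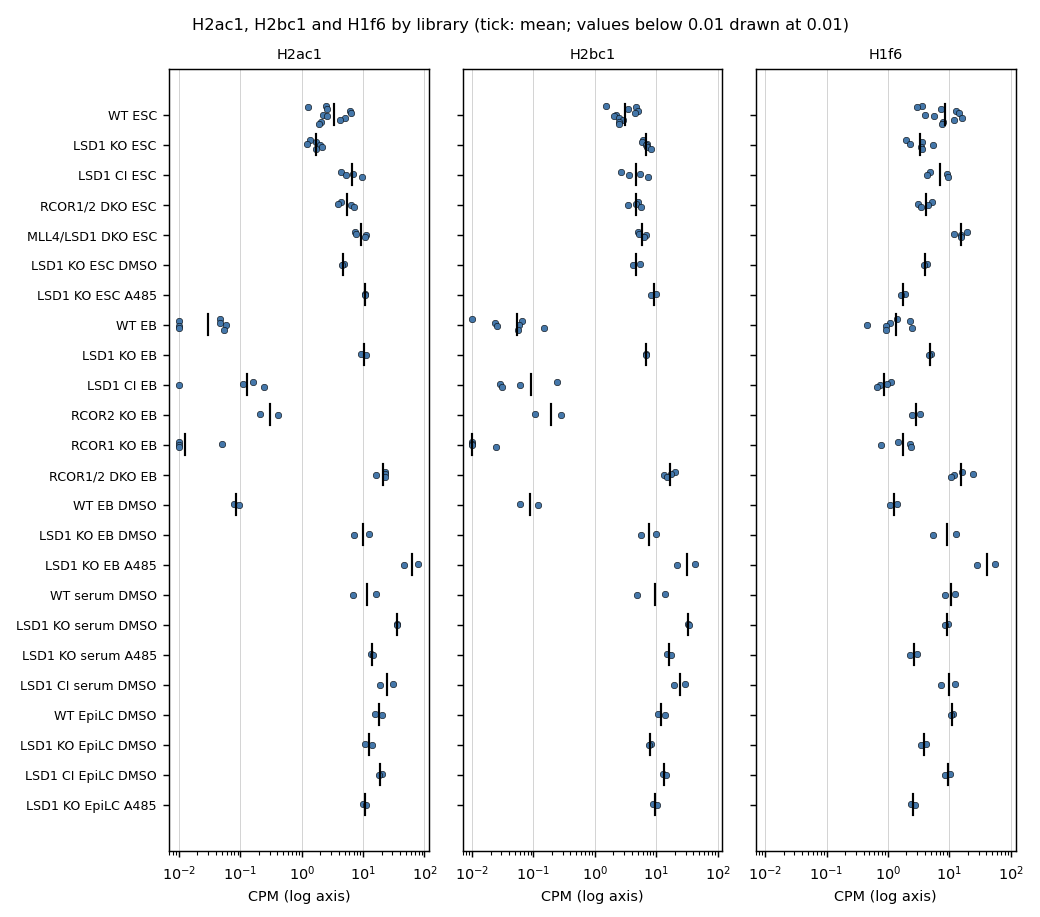
Level of H2ac1, H2bc1 and H1f6 (CPM, log x axes, values below 0.01 drawn at 0.01) in each library of 24 groups, with the group mean as a tick. H2ac1 and H2bc1 are below 0.15 CPM in every WT EB library and lie between 5.65 and 79.0 CPM in every LSD1 KO or RCOR1/2 DKO EB library.

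In serum cultures and EpiLCs no rise of members passed the test. H2ac1 stood at 35.8 and 35.2 CPM in LSD1 KO serum cultures against 16.2 and 6.85 in WT (log2 1.62, adjusted p = 0.0354) and at 31.1 and 18.6 CPM in LSD1 CI. H2bc1 stood at 32.9 and 34.0 CPM (log2 1.82, adjusted p = 0.0423). No member was called in LSD1 KO or LSD1 CI serum cultures (9.55% and 2.99% of genes; 22 and 19 members with an unadjusted p below 0.05, and 2 and 0 by DESeq2). In EpiLCs 1 member, H1f6, fell in LSD1 KO (4.11 and 3.49 CPM against 11.3 and 10.7, log2 -1.52, SE 0.19, adjusted p = 2.12e-05, while 2.66% of genes fell) and none was called in LSD1 CI (2.15%; 15 with an unadjusted p below 0.05, 0 by DESeq2). The pair went the other way in LSD1 KO EpiLCs than in serum, without being called. H2ac1 was at 10.6 and 13.9 CPM against 15.8 and 20.6 in WT EpiLCs, and H2bc1 at 8.21 and 7.56 against 10.6 and 13.7. H1f4 was lower in both states of LSD1 KO within the fold threshold (270 and 258 CPM against 432 and 406 in serum, log2 -0.68, adjusted p = 2.83e-05; 163 and 168 against 230 and 263 in EpiLCs, log2 -0.56, adjusted p = 7.87e-06). Of 7 ESC markers 6 rose in LSD1 KO EpiLCs (median log2 fold change 1.77) and 5 in LSD1 KO serum cultures (1.99), and their part in these values was not tested. A difference of the LSD1 KO response between the states was called for no member by edgeR (1.24% of genes; 5 members with an unadjusted p below 0.05, 3 called by DESeq2).

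The sum of histone RNA was lower with A485 in both cultures of LSD1 KO cells, without overlap. It stood at 6402 and 6764 CPM against 7641 and 8392 in serum (log2 ratio -0.28 ± 0.11) and at 5177 and 5736 CPM against 6717 and 7257 in EpiLCs (-0.36 ± 0.13). In serum 2 of 59 members fell (9% of genes): H1f6, 2.99 and 2.31 CPM against 9.66 and 8.36 (log2 -1.75, SE 0.29, adjusted p = 0.000648), and H4c9, 40.5 and 33.5 CPM against 82.8 and 79.6 (log2 -1.13, SE 0.15, adjusted p = 0.000372). Neither was called without A485 replicate 2. In EpiLCs also 2 fell past the fold threshold (10.2% of genes): H2bc7, 47.5 and 47.1 CPM against 88.0 and 108 (log2 -1.04, SE 0.10, adjusted p = 1.76e-06), and H2ac10, 40.9 and 45.4 CPM against 79.0 and 95.02 (log2 -1.005, SE 0.09, adjusted p = 1.97e-07). Neither was called without DMSO replicate 2. With no fold limit 25 of 59 fell in EpiLCs, where 22.7% of all genes did, and the median was -0.40 against 0.00 over all genes. Of 26 S phase genes 1 fell (median -0.43), and of 7 CDK inhibitor genes 5 rose and 1 fell. The linker gene H1f0 went up within the fold threshold (29.6 and 27.9 CPM against 16.4 and 14.1, log2 0.93, adjusted p = 3.31e-05). H2ac1 and H2bc1 were called in neither culture. With A485 in serum both were lower without overlap: H2ac1 at 13.7 and 14.3 CPM against 35.8 and 35.2. H2bc1 stood there at 15.1 and 17.4 CPM against 32.9 and 34.0. In EpiLCs H2ac1 was at 9.91 and 11.2 CPM against 10.6 and 13.9, and H2bc1 at 8.83 and 10.2 against 8.21 and 7.56. Markers of cell state moved with A485 as well. Of 4 EpiLC markers 4 fell in EpiLCs (median log2 fold change -3.61) and 3 in serum (-3.24), and of 7 ESC markers 3 fell in EpiLCs and 4 in serum (medians -0.51 and -1.76). The EpiLC markers summed to 1542 to 1595 CPM in EpiLCs in DMSO and 230 to 256 with A485, and to 776 to 798 and 160 to 170 in serum. Their part in the histone results was not tested.

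In LSD1 KO ESCs A485 moved members both ways around a total that stayed close (log2 ratio -0.14 ± 0.09). H1f4 rose from 160 and 155 CPM to 353 and 353 (log2 1.16, SE 0.06, adjusted p = 1.09e-11), H2ac1 from 4.95 and 4.62 to 10.7 and 10.8 (log2 1.16, SE 0.15, adjusted p = 1.83e-06), H1f10 from 14.8 and 21.5 to 36.1 and 40.1 (log2 1.07, SE 0.16, adjusted p = 0.00039) and H2bc9 from 23.1 and 15.5 to 53.3 and 42.6 (log2 1.31, SE 0.23, adjusted p = 0.00693). H1f6 fell from 4.25 and 3.91 to 1.92 and 1.61 CPM (log2 -1.21, SE 0.23, adjusted p = 0.000154). That is 4 of 59 up and 1 down, where 5.94% and 11.7% of all genes were. The H1f10 call was lost without DMSO replicate 1 or A485 replicate 2 (0.83 and 0.99). Of 7 ESC markers 5 fell (median log2 fold change -1.29), summing to 1318 to 1336 CPM with A485 and 3551 to 3696 in DMSO, 3 of 4 ectoderm and neural markers fell and 2 of 4 endoderm markers rose, and their part in the result was not tested.

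With DOX-induced LSD1 no member was called by edgeR when the libraries were treated as unpaired, and 1 or 2 fell when they were paired. In LSD1Res Kdm1a reached 992 to 2395 CPM with DOX and 10.98 to 38.8 without. No member was called by edgeR (2.37% of genes; 7 with an unadjusted p below 0.05, 1 by DESeq2), and the sum was 9305 ± 532 CPM against 9956 ± 538. Replicate numbers paired these libraries, and with the replicate as a block H2bc1 fell (4.00, 6.15, 1.97 and 2.75 CPM against 9.34, 11.2, 4.63 and 5.29; log2 -1.05, adjusted p = 0.00016, where 3.19% of all genes fell in that fit), lower with DOX in 4 of 4 pairs. In DKO + LSD1, where Kdm1a reached 1811 to 6136 CPM from 264 to 273, the sum was 6402 ± 402 CPM with DOX and 8181 ± 1059 without (log2 ratio -0.35 ± 0.21). No member was called (0.332% of genes; 36 with an unadjusted p below 0.05, 2 by DESeq2), with a median of -0.40 against 0.01 over all genes. The 0.332% is for calls, and the 36 have no share of all genes beside them. With the block H2bc9 (9.20, 13.6, 11.1 and 17.0 CPM against 21.1, 31.2, 26.3 and 31.5, log2 -1.13, adjusted p = 6.04e-06) and H1f6 (5.67, 5.26, 2.97 and 3.09 CPM against 9.26, 9.73, 7.49 and 10.9, log2 -1.17, adjusted p = 0.000742) fell, where 0.571% of all genes did. LSD1 KO cells without a transgene also had a lower sum with DOX (7431 and 8079 CPM against 8520 and 9410, log2 ratio -0.21), with no member called (0.0178% of genes; 13 with an unadjusted p below 0.05, 0 by DESeq2), and 1 with the block, Hist1h2an (log2 -1.34, adjusted p = 0.00512). There H1f6 stood at 2.31 and 3.41 CPM with DOX against 4.67 and 3.93 without, H2bc1 at 4.62 and 5.60 against 6.22 and 5.94, and H2bc9 at 22.4 and 7.57 against 20.7 and 15.6. The part of DOX itself in the sums and in the calls of both transgene lines was not tested.

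Over the 28 pairwise comparisons 40 of the 60 tested members were called at least once, where 62.8% of the 19179 genes tested were, so this count is close to the background. Of the 40, 25 were called in LSD1 KO ESCs against WT alone. H2ac1 was called in 10 comparisons (9 up, 1 down), H1f6 in 9 (3 up, 6 down), H2bc1 in 9 (7 up, 2 down) and H1f10 in 5 (3 up, 2 down). Many of these comparisons share WT or DMSO libraries. Of these 4, H1f6 and H1f10 shared 0% of their 50-base stretches with another place among the members' exons, H2ac1 1.87% and H2bc1 33.9%.

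**Figure D5:**
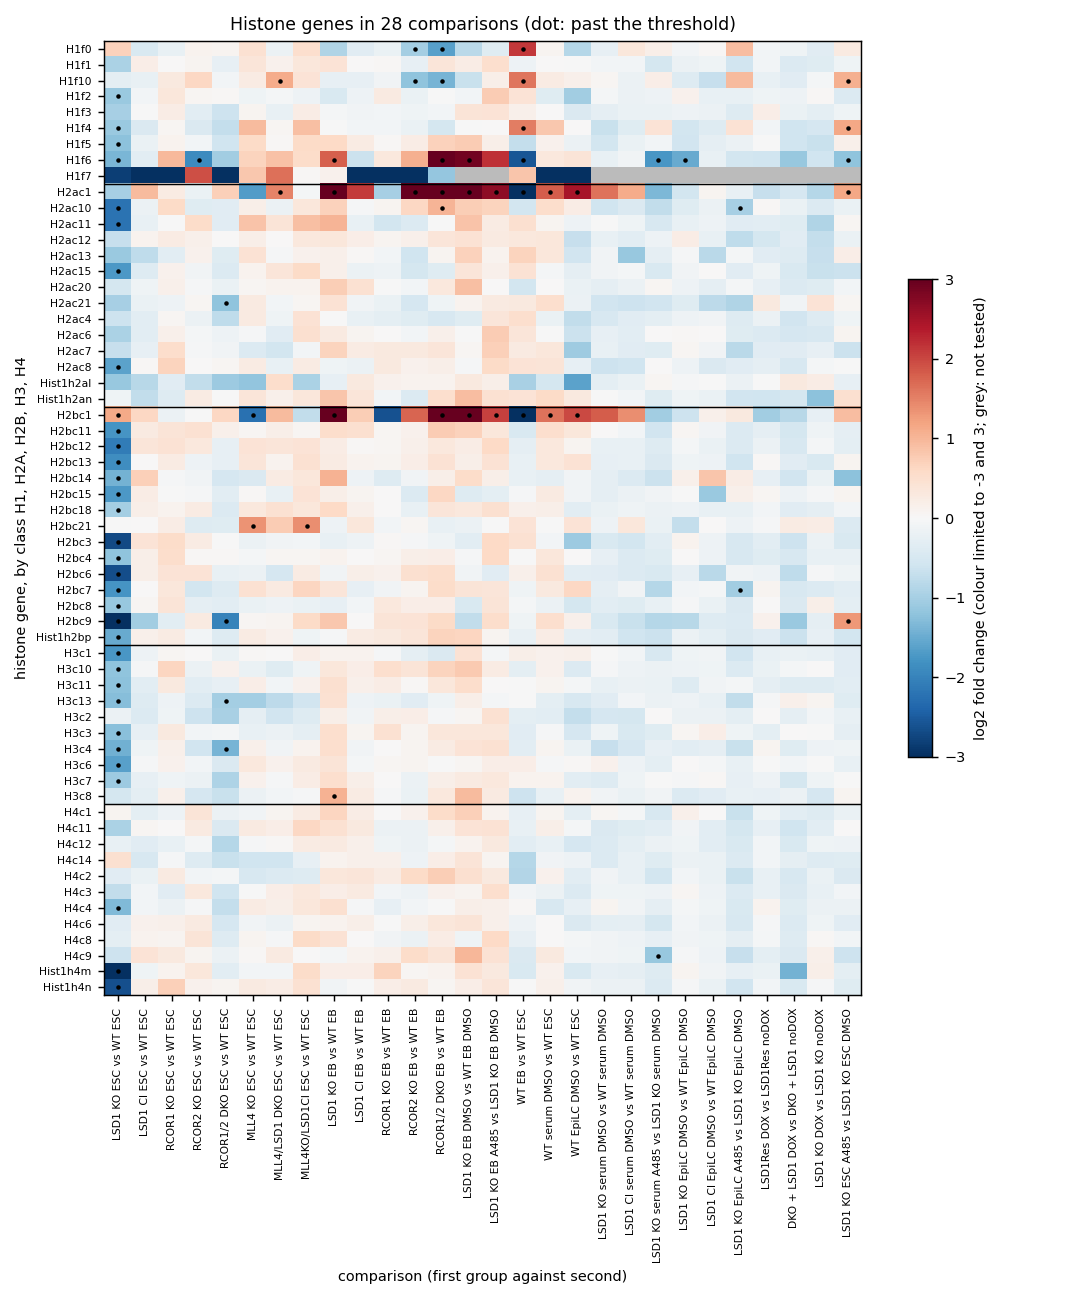
Log2 fold change (colour, limited to -3 and 3, grey where not tested) of each tested histone gene (y axis, by class) in 28 comparisons (x axis), with a dot where the gene passed the threshold. The first column, LSD1 KO ESCs against WT, holds 33 dots, and the H2ac1 and H2bc1 lines are dark red in LSD1 KO and RCOR1/2 DKO EBs.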

How the data were processed

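Per the labels and the study's methods, ribosomal-RNA-depleted, strand-specific libraries were aligned by the authors to mm9 with STAR 2.7.9a, duplicates were removed with Picard 2.25.5, and featureCounts gave the deposited values, raw read counts per gene. The featureCounts version was not given in the sources used here. Duplicate removal caps the count of short, abundant genes such as histones. Mates were counted separately: most counts were even. The members and lists were chosen with earlier results of these data known.

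CPM are counts over library sizes scaled by the trimmed mean of M-values across 112 libraries (19354 genes), not adjusted for length except where given per kilobase. Comparisons used edgeR 4.0.16 (R 4.3.3; limma 3.58.1; quasi-likelihood, filter on low counts, robust), with all genes tested and Benjamini-Hochberg adjustment. ESC groups shared 1 fit, as did EB groups and the WT groups. Calls needed an adjusted p under 0.01 together with a log2 fold change beyond 1 in size. SE is the log2 fold change over the square root of F. Sums by class have no test. In simulated data for LSD1 KO against WT ESCs, 99% of 200 genes changed by a log2 of 2 were called among 15100 genes. Alternatives included DESeq2 1.42.0 and a term for the 9 libraries without counts on unplaced contigs. Named were the linker genes, the highest member of each core class per kilobase, up to 6 called members each way per comparison with a mean of at least 1 CPM in 1 group, and the members called most often. A few others are named for contrast after their values were seen. Sequences were read from mm9. Sums used pandas 2.3.3 and numpy 2.4.6 under Python 3.11.15, intervals scipy 1.17.1 and plots matplotlib 3.10.9.

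Replicate numbers paired the libraries in the LSD1Res comparison (correlations of same-numbered deviations 0.519 to 0.574) and in the DKO + LSD1 comparison (0.456 to 0.542). No 2 replicates agreed within sampling noise. The intervals cover counting error only, and counts were halved for them because mates were counted separately.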

Additional observations from a re-analysis of the deposited data

Results flagged for a closer look

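Of 510 tests of a single library against its group (34 quantities in 15 groups of 4 to 10 libraries), 17 (3.33%) stood apart by Dixon's 95% limit, where chance gives about 1 in 20. Among linker genes these were H1f10 at 23.0 CPM in LSD1 KO ESC replicate 2, H1f3 at 296 CPM in RCOR1/2 DKO ESC replicate 4 and H1f3 at 394 CPM in RCOR1 KO EB replicate 3. Among testis-type genes they were H2ac1 at 15.97 CPM in RCOR1/2 DKO EB replicate 3 and at 0.0496 CPM in RCOR1 KO EB replicate 2, and H2bc1 at 0.241 CPM in LSD1 CI EB replicate 1 and at 0.0244 CPM in RCOR1 KO EB replicate 4. The RCOR1 KO EB values are 2 counts of H2ac1 and 1 count of H2bc1, with 0 in the other libraries, where any count is flagged. The LSD1 CI EB value of H2bc1 is 9 counts. Among H2A and H2B genes H2ac15 was at 265 CPM in RCOR2 KO ESC replicate 3, H2bc7 at 83.0 CPM in LSD1 CI ESC replicate 3, H2bc9 at 100.4 CPM in RCOR1/2 DKO EB replicate 1 and H2bc21 at 0.416 CPM in DKO + LSD1 DOX replicate 4. Among H4 genes H4c9 was at 77.3 CPM in RCOR1 KO ESC replicate 2, H4c4 at 644 CPM in MLL4KO/LSD1CI ESC replicate 3, and Hist1h4m at 7.66 CPM in RCOR1 KO EB replicate 1 and at 12.1 CPM in DKO + LSD1 noDOX replicate 4. The summed H2A level of 857 CPM in RCOR1 KO ESC replicate 2 and the summed H2B level of 1961 CPM in MLL4/LSD1 DKO ESC replicate 3 were the others.

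The response to loss of LSD1 differed between EBs and ESCs for 38 members by edgeR's interaction test. The difference was 9.34 (SE 0.72) for H2ac1, 5.76 (SE 0.55) for H2bc1, 4.19 (SE 0.49) for H2bc9, 3.17 (SE 0.62) for H1f6, 1.79 (SE 0.27) for H4c4 and -1.60 (SE 0.27) for H1f0 on the log2 scale. It uses the untreated LSD1 KO ESC libraries.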

How the results depend on the processing

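The log2 ratio of total histone RNA moved by less than the replicate SD in each alternative run, but changed sign in 11 of 86 values, all for ratios within 0.0349 of 0, and in 12 of 102 with 1 library left out, there for ratios up to 0.318. Counts of called members stayed within 1.5 times in 186 of 215 alternatives. For LSD1 KO ESCs 31 to 34 members were called under the other settings, but 4 with the LSD1 KO ESC DMSO libraries and 1 with the LSD1 KO noDOX libraries in place of the untreated ones; the cause was not tested. Hist1h4m reversed there, to 0.0497 with the term for the 9 libraries and to 0.0471 against WT replicates 1 to 3.

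DESeq2 called 1 member in LSD1 CI ESC, LSD1 CI EB and LSD1Res DOX, 2 in LSD1 KO serum and DKO + LSD1 DOX and 3 for the difference between serum and EpiLC. The term, or WT libraries with counts on unplaced contigs alone, gave 1 in LSD1 CI ESC, and those WT libraries gave 4 in WT EpiLC. With only the groups compared, 0 were called in RCOR2 KO ESC and RCOR2 KO EB, 1 in MLL4 KO and EB A485 and 4 in serum A485. Without the filter on low counts 1 was called in LSD1 CI EpiLC and in EpiLC A485. The cause was not tested.

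The replicate block called 1 member in LSD1Res DOX, 2 in DKO + LSD1 DOX and 1 in LSD1 KO DOX. Where numbers did not pair the libraries, the block gave 0 in RCOR2 KO ESC, 21 in MLL4 KO, 7 in MLL4/LSD1 DKO, 3 in MLL4KO/LSD1CI, 19 in WT serum, 17 in WT EpiLC, 2 in LSD1 CI serum and 4 in serum A485. For these fits no share of all genes is given, so the counts are not read as results about the members.

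Leaving out 1 library, with the lone sample left in a pair assumed to vary like the other groups, gave 0 to 2 calls in WT serum (0 without WT serum replicate 1), 0 to 1 in WT EpiLC (0 without its replicate 2) and RCOR2 KO EB (0 without its replicate 2), 1 in MLL4 KO (either library), 2 to 3 in LSD1 KO EB (2 without its replicate 2), 2 to 9 in LSD1 KO EB DMSO (9 without its replicate 2) and 2 to 6 in EB A485 (6 without DMSO replicate 1). It gave 0 to 2 in LSD1 KO serum and LSD1 CI serum (2 without WT replicate 1), 0 to 2 in serum A485 (0 without A485 replicate 2), 0 to 1 in LSD1 CI EpiLC (1 without its replicate 2), 0 to 6 in EpiLC A485 (6 without DMSO replicate 1, 0 without DMSO replicate 2), 0 to 1 in LSD1Res DOX (1 without DOX replicate 2) and 5 to 8 in ESC A485 (8 without A485 replicate 2). Of the single-gene alternatives 602 kept their call, 46 lost it and 2 reversed, and with 1 library left out 110 kept their call and 32 lost it. Groups of 2 libraries, near-identical copies and duplicate removal limit single-gene values; another scaling moved the median of all genes by at most 0.0529.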

Other observations

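The 4 epiblast-like markers summed to 2717 to 2808 CPM in WT EpiLCs and to 112 to 304 CPM in WT ESCs. The 4 ectoderm and neural markers summed to 213 to 218 CPM in LSD1 KO EBs and to 29.4 to 141 CPM in WT EBs. The part of either list in the histone values of these groups was not tested.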
